A study of Homo sapiens with 21 samples.

Results

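Isoform usage is the division of a gene's RNA among its alternative transcripts, and it was compared here between 786-O cells with and without knockout of JMJD6. The line 786-O derives from a clear cell carcinoma of the human kidney. Of its 9 RNA libraries, 3 carried the control guide sgCtrl (JMJD6 wild type), 3 carried JMJD6 guide sg2 and 3 carried JMJD6 guide sg4, both labelled JMJD6 KO. Total RNA was sequenced, and the labels name a triplicate without saying whether these were separate cultures, so p-values measure only the spread between these libraries. A treatment text about siRNA transfection accompanies the samples, but titles and extraction text name guides, and it is not stated whether the knockout cells were a pool or a clone.

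The genes studied were those with at least 2 RefSeq transcripts that each reached a mean of 1 TPM (TPM sums to the same total in each library and is a level per transcript length) over the 9 libraries. This gave 7039 genes with 25522 transcripts, out of 26805 genes with a matched transcript and 11491 genes with at least 2 transcripts in the files. Of these genes, 2792 kept 2 transcripts, 1711 kept 3 and 970 kept 6 or more, and the largest number was 37 for CTNNA1, the alpha-catenin of adherens junctions. Coding accessions (NM) made up 22717 of the transcripts and noncoding accessions (NR) 2805. A transcript's share is its TPM as a percentage of the summed TPM of its gene's kept transcripts in the same library, and a share change is the mean of the 6 knockout libraries minus the mean of the 3 controls, in percentage points.

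One gene yields several transcripts through alternative promoters, cassette exons, retained introns and alternative last exons, and these can encode different proteins or none. JMJD6 is a nuclear 2-oxoglutarate-dependent oxygenase that hydroxylates lysines of splicing regulators such as U2AF2 and the LUC7-like proteins, and it has been linked to alternative splicing as well as to transcription. RefSeq gives an NR accession to transcripts of coding genes that are held not to be translated, among them many candidates for nonsense-mediated decay.

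The files were first checked for isoforms that simply carry equal counts. No gene had equal counts for its kept transcripts in all 9 libraries, and 223 genes had them in at least 1 library. The estimated counts of isoforms were nevertheless of like size. In genes with 2 kept transcripts the smaller summed count was a median 0.803 of the larger, and in 1414 of these genes (50.6%) the pair lay within 1.25 times of each other. How reads compatible with several isoforms were assigned is not given in the sources used here. A share is therefore not a fraction of molecules, and a change in the reads that separate 2 isoforms can be diluted by the reads they have in common. A TPM share also gives short transcripts more weight than a share of counts.

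**Figure D1:**
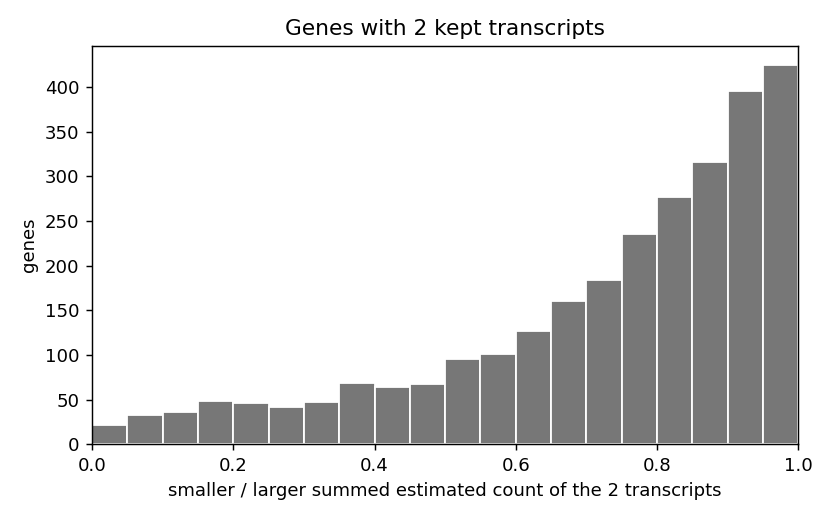
Distribution of the smaller over the larger summed estimated count (x axis, no unit) in the 2792 genes with 2 kept transcripts, with the number of genes on the y axis. The bars rise towards 1, and the tallest bar, from 0.95 to 1, holds 425 genes.

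The libraries held from 14224263 to 16300347 estimated counts, of which 62.2% to 62.6% lay in the kept transcripts. Between control libraries the median SD of a transcript's share was 1.34 points. Of the kidney tubule markers, among them PAX8, PAX2, CDH16, GGT1, PDZK1 and CDH6, 7 of 7 reached a mean TPM of 1, and their summed TPM was 622 to 676 in controls, 504 to 541 in sg2 libraries and 543 to 570 in sg4 libraries. CDH6 did not fall with the sum, with means of 48.5, 50.8 and 54.3 TPM in the same order. The summed TPM of keratins KRT8 and KRT18 was 839 to 861 in controls and 944 to 990 in knockout libraries. Of 4 blood cell markers 2 reached a mean TPM of 1, CD68 (50.4 to 85.3 TPM) and CSF1R (1.13 to 2.57 TPM), while CD3E was at 0 in all libraries. The blood cell sum was 66.4 to 86.4 in controls, 52.9 to 61.0 in sg2 libraries and 53.8 to 63.1 in sg4 libraries. Most of that sum is CD68, with means of 72.2, 55.9 and 58.0 TPM in the same order. CSF1R went the other way, with means of 1.18, 2.26 and 1.83 TPM. None of 3 endothelial markers reached a mean TPM of 1, and CDH5 was at 0 in all libraries. The summed TPM of the airway secretory genes SCGB1A1 and BPIFB1 lay between 3.38 and 22.7 in controls, between 27.1 and 44.8 in sg2 libraries and between 24.8 and 77.5 in sg4 libraries, and both genes reached a mean TPM of 1. The summed TPM of 6 fibroblast markers, of which 4 reached a mean TPM of 1 and none was at 0 throughout, lay between 30.0 and 58.8, 15.8 and 23.8, and 18.2 and 24.9 in the same order. Control 1 stood apart in some of these, with COL1A2 at 7.49 TPM against 0.529 and 0.055 in the other controls. DCN was at 5.31 against 0.243 and 0.084, LUM at 18.5 against 8.11 and 7.89, and COL1A1 at 3.1 against 1.31 and 0.967. PDGFRB was not higher in control 1 (0.308 TPM against 0.34 and 0.386). ACTA2 was high in every control (24.0, 19.5 and 22.1 TPM) and lay between 9.20 and 15.8 TPM in the knockout libraries. Without control 1 the main test described below called the same 4 genes in the mean of both guides. The DESeq2 test described below called fewer genes without it. The genes called in the noncoding comparison below no longer passed. Apart from such fits, the part of these marker differences in the results was not tested. The relative level of transcripts of at most 1251 bases also varied. It lay 0.15 below the mean of the libraries in control 3 and 0.093 and 0.12 above it in sg4 libraries 2 and 3 (log2 scale), and results that rest on these libraries are given without them below.

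JMJD6 itself fell in both of its kept transcripts without a called change in their division. Its summed TPM was 34.0 ± 2.39 in controls, 12.5 ± 1.09 with sg2 and 8.90 ± 1.45 with sg4 (SD, n = 3 each). The longer transcript, NM_001081461 of 5423 bases, held 24.9%, 23.4% and 23.5% of JMJD6 TPM in the controls. With sg2 its share was 24.3%, 30.9% and 27.8%, and with sg4 it was 27.4%, 26.3% and 27.3%. The first sg2 library fell within the control range and the other five knockout libraries lay above it. The share change was 3.44 points and did not pass edgeR's isoform test (Benjamini-Hochberg adjusted p = 1.0). DGAT1, which completes triglyceride synthesis and stands beside JMJD6 in the series title, has a single transcript in the files and so has no isoform share.

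Few genes passed a test of isoform usage after JMJD6 knockout. The largest share change within a gene had a median of 1.58 points over the 7039 genes. It was at least 5 points in 543 genes, of which 350 had a mean of at least 5 TPM and 500 counts. POLR1D, KCNMA1, SARS1 and RPS16 passed the main test, 4 of 7039 genes tested (0.0568%). This test, edgeR's diffSpliceDGE, asks whether a transcript's log2 fold change differs from that of its gene, and it counts variation between libraries in the level of the whole gene as noise. A DESeq2 likelihood ratio test that compares each transcript with the rest of its gene inside the same library called 39 genes (0.554%), among them the 4. limma on log2(TPM + 0.5) called 23 genes (0.327%), again including the 4. An edgeR fit with a library term, chosen after seeing the data, called 105 (1.49%). At an unadjusted p under 0.05 the main test held 119 genes (1.69%). The share of 1027 transcripts, or 4.02% of the 25522 kept, had all 6 knockout libraries on one side of the 3 controls, 517 of them (2.03%) above.

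POLR1D showed the widest shift of the genes that passed the main test. It encodes a small subunit common to RNA polymerases I and III, which make ribosomal and transfer RNA. Its 810-base transcript NM_015972 held 53.4%, 48.6% and 51.6% of POLR1D TPM in the controls. That share was 66.4%, 63.8% and 65.8% with sg2, and 62.5%, 61.3% and 61.9% with sg4. All 6 knockout libraries lay above all 3 controls. The share changed by 12.4 points in the mean of both guides, by 14.1 with sg2 and by 10.7 with sg4 (adjusted p = 0.00167 by edgeR and 1.83e-07 by DESeq2). The TPM of this transcript was 51.3 ± 6.27 in controls (SD, n = 3) and 71.3 ± 5.78 in knockout libraries (SD, n = 6). The 2043-base transcript NM_152705 fell from 28.9%, 33.4% and 30.0% of the gene in the controls to between 20.5% and 24.2% in the knockout libraries. For POLR1D the main test called sg2 alone (adjusted p = 0.00141) and not sg4 (adjusted p = 0.261), while the direct test of sg4 against sg2 gave an adjusted p of 1.0. Without the second control library the mean of both guides was no longer called for POLR1D by edgeR (adjusted p = 0.165), and by DESeq2 it was called in each of the 9 fits that left out 1 library.

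KCNMA1 had the smallest p of the main test and was the gene it called with each guide. It encodes the pore-forming subunit of the large-conductance calcium-activated potassium channel BK, and 17 of its transcripts were kept. NM_001271522, at 868 bases the shortest, held 24.0%, 26.4% and 23.5% of KCNMA1 TPM in the controls. It held 30.1%, 31.4% and 27.9% with sg2 and 30.1%, 33.9% and 35.9% with sg4. The lowest knockout library stood above the highest control. The share change was 6.92 points (edgeR adjusted p = 5.33e-08), with adjusted p = 0.00247 for sg2 and 1.02e-08 for sg4. As a share of estimated counts, which does not weight short transcripts, the change was 2.62 points (2.12 with sg2 and 3.12 with sg4). The next shortest, NM_001271521 of 922 bases, also gained, by 2.63 points, and NM_001322839 of 1035 bases gained 1.43 points. NM_001322836 of 6112 bases lost most, from 5.91% ± 0.089 (SD, n = 3) to 4.23% ± 0.594 (SD, n = 6). The 13 transcripts from 6103 to 12084 bases all had a lower mean share in the knockout libraries. The summed TPM of KCNMA1 went from 151 ± 3.38 (SD, n = 3) to 184 ± 9.6 (SD, n = 6), so a lower share need not be a lower level. NM_002247 of 6103 bases had 389, 391 and 408 estimated counts in the controls and 368 to 456 in the knockout libraries. The TPM of NM_001322836 went from 8.92 ± 0.084 to 7.76 ± 0.928.

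**Figure D2:**
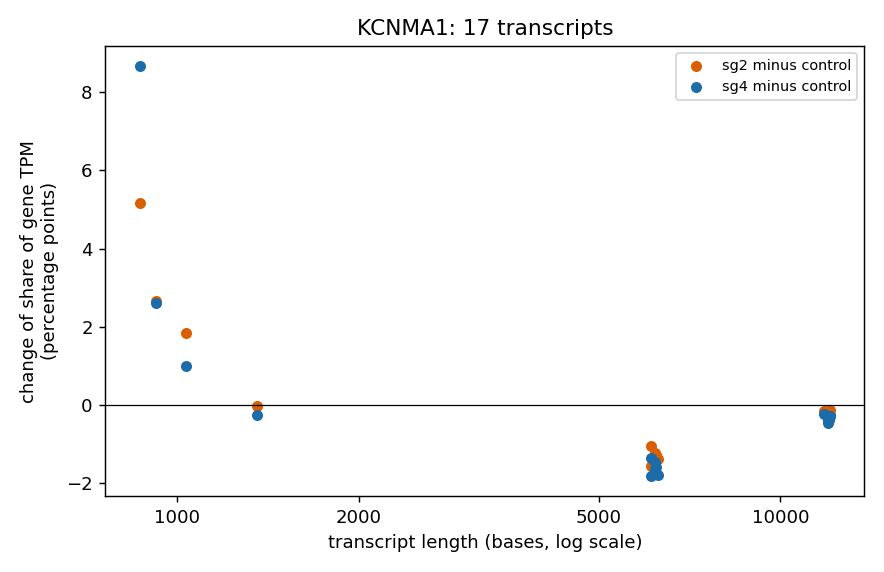
Share change of each of the 17 kept KCNMA1 transcripts (y axis, percentage points, guide mean minus control mean, n = 3 libraries each) against transcript length (x axis, bases, log scale), in orange for sg2 and blue for sg4. The 868-base transcript gained 5.17 points with sg2 and 8.66 with sg4, and every transcript of 6103 bases or more lies below 0 with each guide.

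Length separates the KCNMA1 transcripts that gained from those that lost, and the libraries also differ in the length trend described above. With that trend taken out of the counts, KCNMA1 was still called by both tests (DESeq2 adjusted p = 8.68e-05) and the share change of NM_001271522 was 5.61 points. Without control 3 and sg4 libraries 2 and 3, which leaves 2 controls against 4 knockout libraries, KCNMA1 was not called by edgeR or by DESeq2 (DESeq2 adjusted p = 0.342). Leaving out control 1, control 3, sg2 library 1 or sg2 library 2 ended the edgeR call with each guide, so that 0 genes held it there, while the call in the mean of both guides held in each of the 9 such fits.

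SARS1 shifted towards its noncoding transcript. It encodes the cytosolic seryl-tRNA synthetase, which charges tRNA with serine. NR_034072 held 5.87%, 6.09% and 6.47% of SARS1 TPM in the controls. It held 10.5%, 8.21% and 8.75% with sg2 and 8.31%, 7.77% and 8.45% with sg4, all above the controls. The share change was 2.51 points (adjusted p = 0.000312 by edgeR and 3.69e-07 by DESeq2). Its estimated counts were 520, 521 and 523 in the controls and from 617 to 909 in the knockout libraries. The main coding transcript NM_006513 went from 57.4% ± 1.07 (SD, n = 3) to 55.1% ± 0.748 (SD, n = 6), and the third transcript, NM_001330669, changed by -0.154 points. SARS1 stayed called in each of the 9 fits without 1 library, with edgeR adjusted p up to 0.0215.

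RPS16, a protein of the small ribosomal subunit, shifted from its main transcript to a minor one. NM_001321111 held 8.03%, 7.46% and 7.47% of RPS16 TPM in the controls, 12.4%, 10.3% and 11.4% with sg2, and 9.43%, 9.07% and 10.7% with sg4. No knockout library overlapped the controls. The share of the main transcript NM_001020 fell by 2.91 points (adjusted p = 0.00167 by edgeR and 1.47e-06 by DESeq2). The TPM of NM_001020 was nearly level, at 1642 ± 78.9 in controls (SD, n = 3) and 1685 ± 56.9 in knockout libraries (SD, n = 6), whereas that of NM_001321111 went from 136 ± 8.84 to 199 ± 22.0. Without the second control library RPS16 was not called by edgeR (adjusted p = 0.0793). Without the 3 libraries of the length trend none of the 4 genes passed edgeR's test, and SARS1 (adjusted p = 0.00142), POLR1D (0.0121) and RPS16 (0.0103) passed that of DESeq2.

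**Figure D3:**
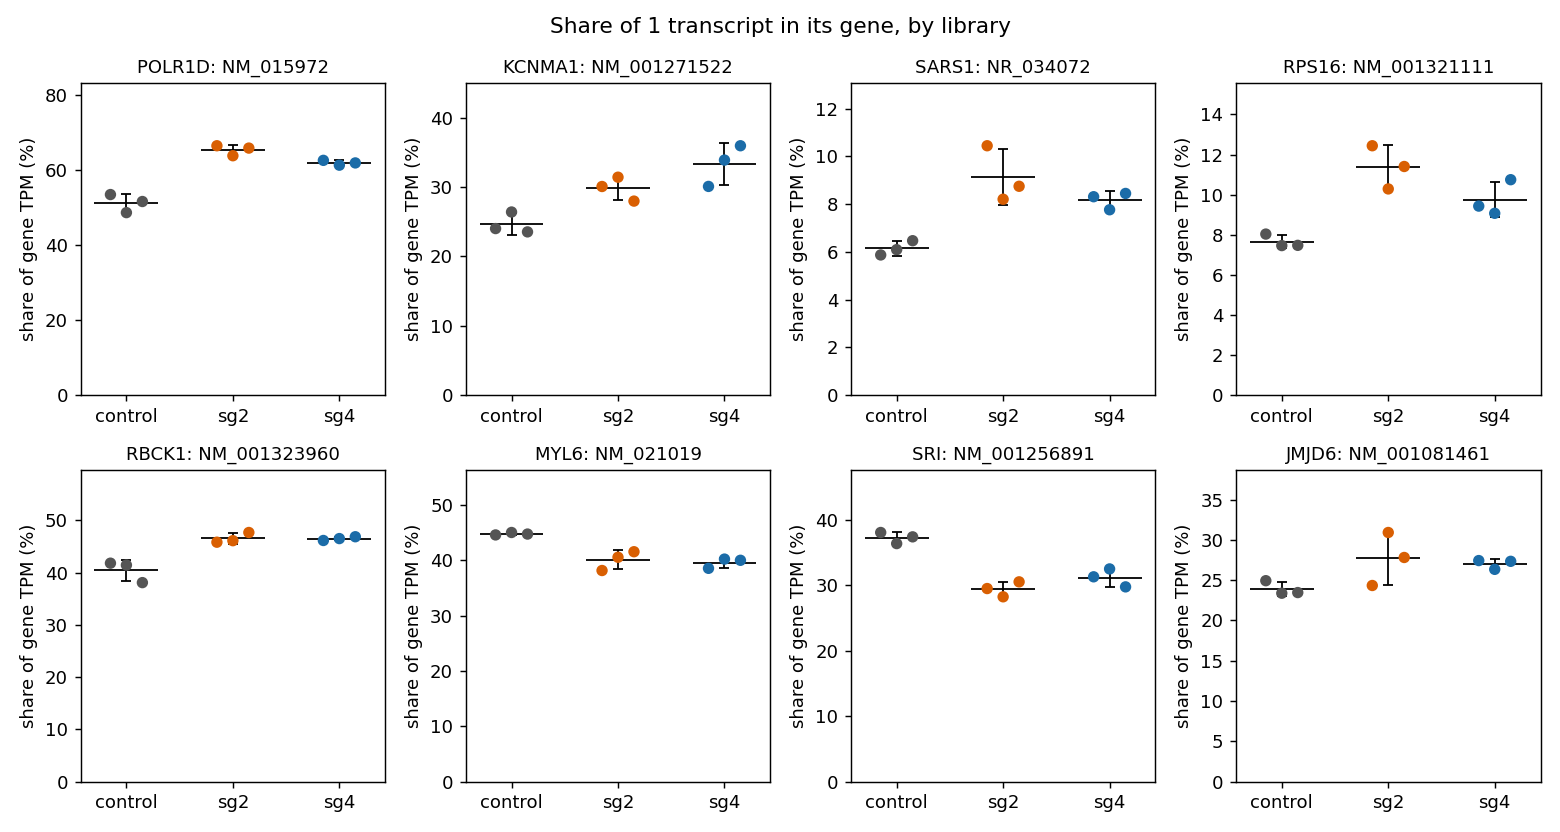
Share of 1 named transcript in the TPM of its gene (y axis, percent, from 0) in each of the 9 libraries, grouped by guide, with horizontal bars for the mean and error bars for the SD (n = 3). In POLR1D, KCNMA1, SARS1, RPS16 and RBCK1 the 6 knockout points lie above the 3 controls, in MYL6 and SRI they lie below, and in JMJD6 1 sg2 point falls within the controls.

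The 35 further genes called by DESeq2 were taken up after their values had been seen. They were read deeply, with a median of 36653 counts per gene over the 9 libraries for the 39 against 5781 for all genes, and the largest share change within a gene ranged from 1.91 to 13.6 points. Leaving out 1 library at a time lowered the number of calls to 17 at the least, without the second control, and 10 of the 39 were called in every such fit, among them KCNMA1, MYL6, POLR1D, RBCK1, RPL10, RPL28, RPS16, RPS24 and SARS1. Without control 3 and sg4 libraries 2 and 3, 7 were called, among them MYL6, POLR1D, RPL10, RPL32, RPS16 and SARS1.

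MYL6 encodes the essential light chain of non-muscle and smooth muscle myosin, and its 2 transcripts differ in length by 45 bases. The longer, NM_021019, held 44.6%, 45.1% and 44.8% of MYL6 TPM in the controls. With sg2 it held 38.2%, 40.6% and 41.6%, and with sg4 38.6%, 40.2% and 40.0%, all lower than the controls. The share fell by 4.95 points (adjusted p = 6.04e-05 by DESeq2 and 1.0 by edgeR).

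SRI and RBCK1 also changed by DESeq2 and not by edgeR's main test, while the edgeR fit with a library term called both. For SRI, or sorcin, a calcium-binding protein, NM_001256891 held 38.0%, 36.3% and 37.4% in the controls, 29.5%, 28.2% and 30.5% with sg2 and 31.3%, 32.5% and 29.7% with sg4 (DESeq2 adjusted p = 0.00218, edgeR adjusted p = 0.16). The SRI call was lost without control 1 or control 3. SRI joined the genes called by edgeR once the length trend was taken out. For RBCK1, a subunit of the linear ubiquitin ligase complex, NM_001323960 rose from 41.8%, 41.5% and 38.1% in the controls to between 45.8% and 47.7% in the knockout libraries (DESeq2 adjusted p = 9.03e-07), a change of 6.08 points in TPM share and 3.59 points in count share.

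Several other DESeq2 calls concerned mitochondrial, signalling and chromatin genes. In UQCRH, the hinge protein of respiratory complex III, the main transcript NM_006004 went from 80.4%, 81.1% and 81.0% in the controls to between 74.0% and 77.0%, a call lost without control 2. In MICOS10, of the cristae-organising complex, NM_001032363 went from 70.6%, 70.8% and 70.7% to between 59.3% and 64.2%, and the call held in 3 of the 9 fits without 1 library. IKBIP, a partner of an NF-kB kinase, gained in NM_153687, from 28.9%, 33.3% and 28.7% to between 36.2% and 38.0%, with the call held in 4 of those 9 fits. GANC, an alpha-glucosidase, had the widest shift in TPM share among the 39, of 13.6 points in NM_001301410 (7.43 points in count share, against 10.5 for POLR1D NM_015972), on only 26 to 70 counts of that transcript per library, and was called in 1 of the 9 fits without 1 library. BRWD1, a bromodomain protein, shifted by -10.7 points in NM_001007246 (-5.86 points in count share) with overlap between groups and was called in 2 of those 9 fits. It was also the single gene of the 39 whose summed TPM differed by more than 1.25-fold between the groups.

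**Figure D4:**
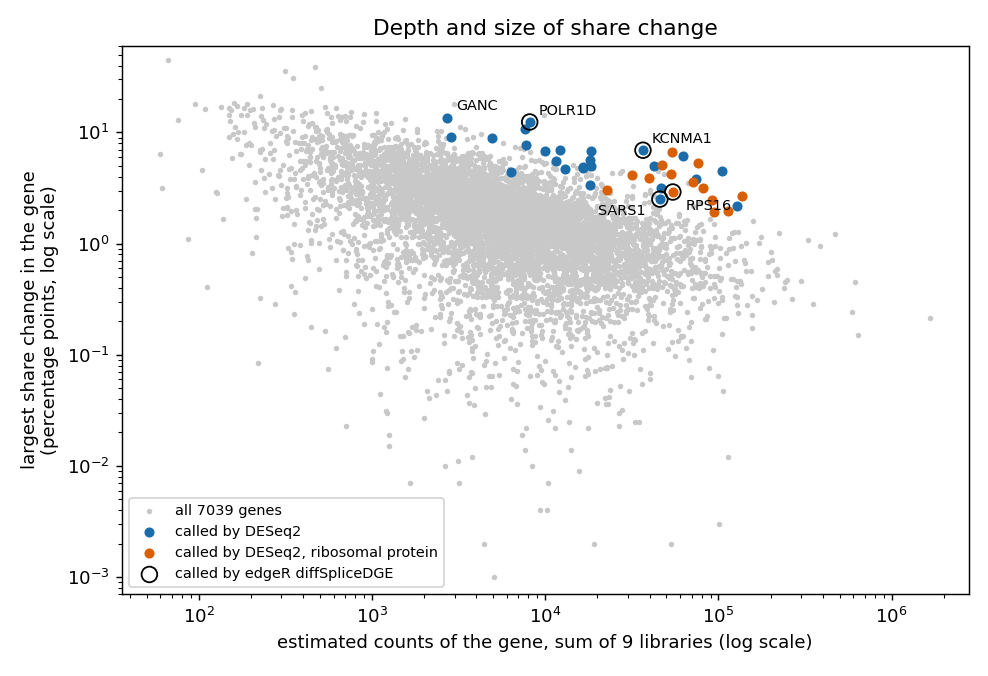
Largest share change within each of the 7039 genes (y axis, percentage points, log scale) against the gene's estimated counts summed over 9 libraries (x axis, log scale), with the 39 DESeq2 calls in blue, or in orange for ribosomal protein genes, and the 4 edgeR calls circled. Large changes lie mostly at low counts, and the called genes sit along the upper edge of the deeper genes.

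Large share changes without a call were mostly in genes with few counts. Of the 95 genes with a share change of at least 10 points, 1 was called by edgeR and 3 by DESeq2, and their median was 445 counts over the 9 libraries. The largest change of all, 44.7 points in the noncoding gene TNKS2-DT, rested on 66 counts in all and on 2 to 13 counts of NR_108070 per library, and neither test called it (adjusted p = 1.0 by edgeR and by DESeq2).

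Ribosomal protein genes made up more of the DESeq2 calls than any other list of genes that was examined. These genes encode the proteins of the cytosolic ribosome, and 39 of the 79 listed have at least 2 kept transcripts. DESeq2 called 14 of the 39 (35.9%), against 0.554% of all genes, and edgeR's main test called RPS16 alone. Without control 3 and sg4 libraries 2 and 3, only 7 DESeq2 calls remained among all genes, RPL10, RPL32 and RPS16 among them. The list is deeply read, with a median of 59996 counts per gene. Of 171 other genes with at least that many counts, 4 were called (2.34%), compared with 7 of the 20 ribosomal protein genes at or above it. The median of the largest share change within a gene was 1.38 points for those 20 and 0.541 for those 171, and it was 1.98 points over the 39 and 1.58 over all genes.

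In 13 of these 14 genes the transcript most used in the controls lost share in the mean of both guides. Over all 39 listed genes this held for 29, and over the 7039 genes for 66.5%. RPL28 changed most in TPM share, by -6.68 points. In count share its change was -2.93 points, smaller than those of RPL32 (-5.11), RPS14 (-5.01) and RPS10 (-3.95). Its transcript NM_001136135 held 53.4%, 56.0% and 54.6% of its TPM in the controls, 47.7%, 48.4% and 49.1% with sg2, and 50.1%, 46.7% and 46.2% with sg4 (DESeq2 adjusted p = 0.000519). NM_000994 of RPL32 went from 61.1%, 62.0% and 58.7% to 52.8%, 55.0% and 51.8% with sg2 and to 56.7%, 59.1% and 57.7% with sg4, where 1 library overlaps the controls (DESeq2 adjusted p = 0.001, lost without control 1 or control 2). In RPS19, known for its mutations in Diamond-Blackfan anaemia, NM_001022 went from 39.6% ± 0.336 (SD, n = 3) to 36.0% ± 0.862 (SD, n = 6), a call lost without control 1.

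RPS24 was the exception. Its kept transcripts were 633 to 676 bases long, apart from NM_001142285 of 2815 bases. NM_001026, the shortest, rose from 30.7%, 30.7% and 28.5% of RPS24 TPM in the controls to 35.2%, 35.3% and 32.9% with sg2 and 35.5%, 36.1% and 36.5% with sg4 (adjusted p = 1.53e-07 by DESeq2 and 0.723 by edgeR). Ribosomal protein genes have many processed pseudogenes, and some have read-through partners, so part of their reads may be shared with other loci. How such reads were treated is not given in the sources used here, and these shares are uncertain for that reason. The same holds for SLMO2-ATP5E, a read-through of 2 neighbouring genes, also called by DESeq2.

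**Figure D5:**
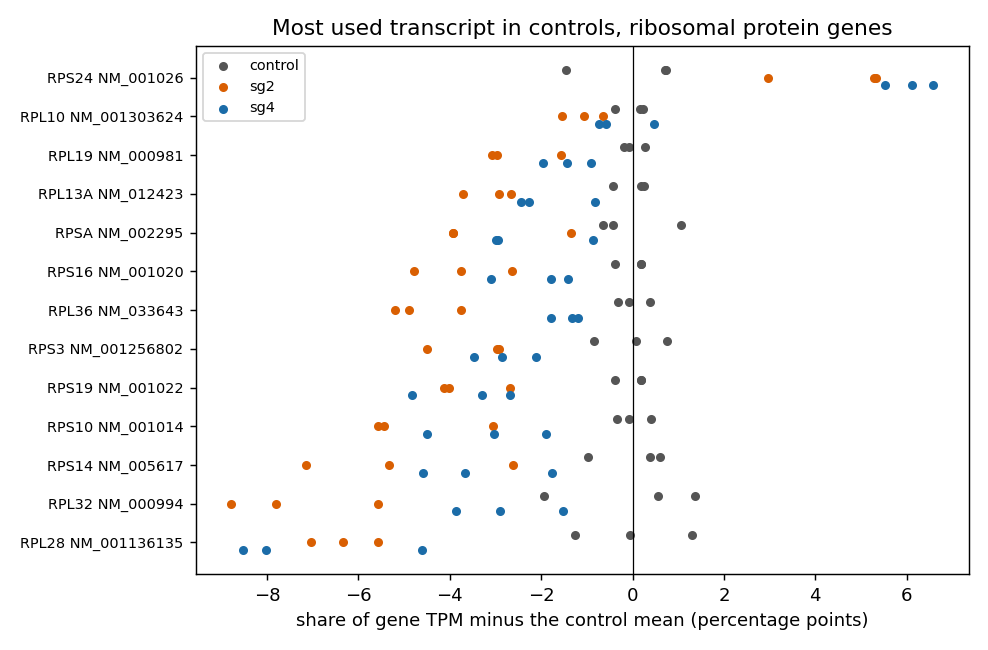
Share of the control group's most used transcript in 13 of the ribosomal protein genes called by DESeq2, as the difference from the control mean (x axis, percentage points), with 1 point per library in grey for controls, orange for sg2 and blue for sg4. Apart from RPS24, whose knockout points lie to the right, the knockout points lie mostly to the left of 0, and those of RPL10 and RPL32 overlap the controls.

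Of 90 listed splicing factors and regulators, 67 had at least 2 kept transcripts, none was called by edgeR's main test and SF3B1 alone was called by DESeq2, which is 1.49% of the list against 0.554% of all genes. The median of their largest share change was 0.778 points, against 1.58 for all genes, at a median of 20160 counts per gene, and the largest was 17.4 points in U2AF1L4, a relative of the small U2AF subunit. SF3B1 is the core of the complex that recognises the branch point. Its largest share change, of 3.19 points, was in NM_012433, which held 63.2% to 68.9% in the controls and 66.6% to 73.3% in the knockout libraries, with overlap. The share of its 2140-base transcript NM_001308824 was 13.9%, 12.5% and 11.8% in the controls, 10.7%, 9.78% and 10.3% with sg2, and 10.3%, 10.9% and 9.77% with sg4 (DESeq2 adjusted p = 0.00345). SF3B1 was called in 8 of the 9 fits without 1 library, and not without the first control.

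Partners and reported substrates of JMJD6 had 17 of 28 members among the genes studied, and neither edgeR's main test nor DESeq2 called any of them. U2AF2, which binds the polypyrimidine tract, had shares of NM_007279 of 45.3%, 47.0% and 46.9% in the controls and from 43.4% to 46.3% in the knockout libraries. The groups overlapped. LUC7L3, a U1-associated LUC7-like protein, held the largest difference of this list, with NM_006107 at 42.2%, 45.0% and 43.5% in the controls and from 46.8% to 49.2% in the knockout libraries without overlap (adjusted p = 0.282 by DESeq2 and 1.0 by edgeR). The edgeR fit with a library term gave LUC7L3 an adjusted p of 0.00924.

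Isoforms known for switches in cancer cells stayed near the control shares. Of 35 genes with mesenchymal or epithelial splice switches neither test called any, and the median of their largest share change was 0.906 points. CD44, whose variable exons mark epithelial states, had its largest share change, of -0.993 points, in NM_001202557. FN1, or fibronectin, had its largest at -0.215 points, in NM_054034, in a gene of 3522 TPM in the controls. The main edgeR test called none of 33 glycolysis and central carbon genes. PKM, whose M1 and M2 forms of pyruvate kinase arise from a choice between exons, had NM_002654 at 21.4%, 21.4% and 21.1% in the controls, 20.6%, 20.7% and 20.1% with sg2, and 21.2%, 21.5% and 21.1% with sg4.

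Of the 19 genes of the hypoxia-inducible factor pathway none was called by the 2 tests, and the median of their largest share change was 0.766 points. VEGFA, the angiogenic growth factor, kept 20 transcripts, and its largest share change was 0.279 points, in NM_001287044. Of 20 apoptosis genes CFLAR, the caspase-8 inhibitor c-FLIP, was called by DESeq2, 5.0% of the list against 0.554% of all genes. Its transcript NM_001127184 was at 32.0%, 27.3% and 22.1% in the controls and from 28.1% to 37.2% in the knockout libraries, which overlap, a change of 5.62 points in TPM share and 1.57 in count share. The CFLAR call was lost without control 1 or control 3. DESeq2 and edgeR's main test called none of 50 lipid metabolism genes (median 1.122 points), 35 oxygenases that use 2-oxoglutarate (1.28), 14 nonsense-mediated decay factors (1.70) and 14 small nucleolar RNA host genes (2.64). A missed threshold does not show that their isoform use was the same, since the shares are diluted as described.

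Noncoding isoforms were compared with the coding isoforms of the same gene in 1411 genes. A total of 3 genes had a higher ratio of noncoding to coding TPM in the knockout cells (0.213% of those tested, limma on log2 ratios) and 0.0% had a lower one. UBE2C, the ubiquitin-conjugating enzyme of the anaphase-promoting complex, rose by 0.87 ± 0.10 on the log2 scale (SE, adjusted p = 0.0119). SARS1 rose by 0.52 ± 0.077 (SE, adjusted p = 0.0425). DHX30, an RNA helicase of mitochondrial ribosome assembly, rose by 0.72 ± 0.11 (SE, adjusted p = 0.049), on 6 counts of NR_075079 in each control and 11 to 21 in each knockout library. In UBE2C, the noncoding NR_104037 held 2.41%, 2.58% and 2.60% in the controls and from 3.58% to 4.64% in the knockout libraries. It had 27 to 34 counts per control and 52 to 66 per knockout library. The noncoding NR_104036 had 2 to 5 and 8 to 22. The main coding transcript NM_007019 went from 60.2%, 59.8% and 61.3% to between 49.4% and 56.2%. The other kept coding transcripts also gained mean share, NM_181800 the most with 1.91 points.

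The calls depended on single libraries: without control 1, control 3 or sg4 library 2 none of the 3 passed, and over the 9 such fits the number of genes called ran from 0 to 4. With sg2 none was called, and with sg4 UBE2C alone (0.0709%). Averaged over the 1411 genes, the noncoding share was 31.1%, 31.0% and 31.1% in the controls, 31.6%, 31.3% and 31.5% with sg2, and 31.3%, 31.2% and 31.3% with sg4. All 6 knockout libraries lay above the controls, by a mean of 31.4% against 31.1% (exact permutation test over 84 splits, 2-sided p = 0.0357). Over all 1411 genes the noncoding ratio was higher in knockout cells in 55.7%, with a median log2 change of 0.02. At an unadjusted p under 0.05 there were 114 genes, 84 of them with the higher ratio, and all but the 3 above missed the adjusted threshold.

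The length of the transcripts in use was compared as the TPM-weighted mean length per gene in 7030 genes. None passed limma's test in the mean of both guides (0.0% called, 548 genes at an unadjusted p under 0.05, smallest adjusted p = 0.0862 for POLR1D). With sg2, 2 genes were called (0.0284%): POLR1D used shorter transcripts, by -0.20 ± 0.017 on the log2 scale (SE, adjusted p = 0.0495), and RPL36, a protein of the large ribosomal subunit, used longer ones, by 0.015 ± 0.001 (SE, adjusted p = 0.0495). With sg4 none was called. The median over genes differed by only -4.79e-05 on the log2 scale between knockout and control libraries (exact permutation test, 2-sided p = 0.0119, the smallest that 84 splits can give). With the length trend taken out, the difference was -2.83e-06 (exact permutation p = 0.952).

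The 2 guides were also set directly against each other. edgeR's main test called 0.0% of genes for sg4 against sg2, with 35 genes (0.5%) at an unadjusted p under 0.05. DESeq2 and limma also called none, with 95 (1.35%) and 193 genes (2.74%) at an unadjusted p under 0.05. Against the shared controls edgeR called 4 genes with sg2 (0.0568%), namely KCNMA1, POLR1D, RPS16 and SARS1, and KCNMA1 with sg4 (0.0142%). DESeq2 called 40 genes with sg2 (0.568%) and 17 with sg4 (0.242%), limma 11 (0.156%) and 9 (0.128%), and edgeR with a library term 121 (1.72%) and 49 (0.696%). That last fit also called 12 genes for sg4 against sg2 (0.17%). Both guides' libraries share the same 3 controls.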

How the data were processed

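The 9 RNA libraries have 1 table each with, per RefSeq transcript, an estimated count and a TPM, columns laid out as Salmon writes them, per the file headers. The deposited estimated counts were whole numbers in every row. The TPM values were deposited as scaled by the authors to a fixed library total and per effective length, per the file headers. Tools named in the submitters' processing notes include Salmon, DESeq2, STAR 2.5.2b and cutadapt 1.12, with builds hg19 and GRCh37. The strand setting, the treatment of reads shared by isoforms and the RefSeq release are not given in the sources used here. Of 60422 transcripts, 58025 (96.03%) matched a gene of the RefSeq table for GRCh38.p14, used for names only. The 6 peak lists of the series were not used.

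Counts of the 25522 kept transcripts were fitted with edgeR 4.0.16 (R 4.3.3, TMM, quasi-likelihood, diffSpliceDGE, Simes p per gene), all 9 libraries together, with Benjamini-Hochberg adjustment over 7039 genes and calls at 0.05. DESeq2 1.42.0 and limma 3.58.1 (log2(TPM + 0.5)) were alternatives, all tests 2-sided. In DESeq2 each transcript was set beside the rest of its gene with a term per library. Noncoding ratios and length in use were fitted with limma. The length correction divided counts by a loess trend on log2 length per library. The fits were tested on simulated data. Genes were named by rule: JMJD6, DGAT1, up to 14 genes called by edgeR with a mean of at least 5 TPM and the same direction with each guide, up to 3 called genes per list, and the 3 largest called noncoding changes each way. Any other gene was chosen once its values had been seen. The members and the 11 gene lists were chosen with earlier results of these data known. Replicate libraries differed by more than counting noise (chi-square per degree of freedom of 1.24 to 1.25). Some results are not reported here.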

Additional observations from a re-analysis of the deposited data

How the results depend on the processing

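The number of genes called in the mean of both guides (4 by edgeR's diffSpliceDGE) was 39 by DESeq2, 23 by limma with 0.5 or 0.1 TPM added, and 105 by edgeR with a library term, an alternative chosen after seeing the data. For sg2 (4) these gave 40, 11, 12 and 121, for sg4 (1) 17, 9, 10 and 49, and for genes called with each guide (1) 12, 4, 5 and 31. For sg4 against sg2 (0) the library term gave 12 and the others 0. Taking out the length trend gave 6 genes for the mean of both guides and 2 for sg4. Without control 3 and sg4 libraries 2 and 3, which leaves 2 controls and 4 knockout libraries, edgeR called 0 genes in the mean, 3 with sg2, 0 with sg4 and 0 with each guide, and DESeq2 called 7.

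Leaving out 1 library at a time gave 2 to 5 genes in the mean (2 without control 2), 3 to 5 with sg2, 1 with sg4, 0 to 1 with each guide and 0 to 1 for sg4 against sg2. DESeq2's 39 became 17 to 42, with 19, 17 and 19 without controls 1, 2 and 3, and 24 without sg2 library 1 or sg4 library 3. The 3 noncoding calls became 0 to 4 (1 without control 1, sg2 library 3 or sg4 library 1), 6 at a mean TPM of at least 5, and 0 without the 3 libraries. The 0 calls for length in use became 0 to 4 (4 without control 2, 2 without sg4 library 3). The median length difference of -4.79e-05 ran from -6.48e-05 to -3.81e-05, with exact p up to 0.0714. It was -3.63e-05 at a mean TPM of at least 5 (exact permutation p = 0.0714), -2.83e-06 with the length trend taken out (p = 0.952) and -4.48e-05 without the 3 libraries (p = 0.133), where fewer splits exist. In all these cases the cause was not tested beyond the fewer libraries themselves.

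Replicate numbers did not pair the libraries: same-numbered libraries of 2 groups had correlations of -0.032 to 0.015 over 9 pairs. With the replicate number as a block, edgeR called 4, 4, 1, 1 and 0 genes in the 5 isoform results in the order above, the noncoding comparison 0 and length in use 1. None of the share changes of the named genes changed sign (51 results under 765 alternatives in all).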
